A study of Mus musculus with 6 samples.

Results

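A group of 7 named regulators of multiciliated and motile cilia programmes were examined in olfactory cells with and without Fezf1, namely Gmnc, Trp73, Foxj1, Rfx2, Rfx3, Ccno and Myb. They are 7 of the 19938 genes measured. The genes were taken by symbol, each represented by the probe set chosen by its highest mean signal over all 6 arrays. Every one of them had 1 probe set, so this choice changed none of their values. They were listed with their differences between the genotypes already known, so the test values given for them state size against spread and are not independent evidence.

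RNA was measured in EGFP-positive cells sorted from the microdissected main olfactory epithelium of C57BL/6 mouse embryos at E18.5. All cells carried the targeted Fezf1 allele, in which EGFP is driven by the endogenous Fezf1 promoter. The 3 Fezf1+/- arrays carried that allele beside a functional copy, and the 3 Fezf1-/- arrays had no functional copy, so no wild-type cells were compared. The labels do not state whether replicates were separate embryos or pools, so a p-value here reflects only how far these samples scatter, which may be technical scatter. Values are log2 signals of Affymetrix Mouse Gene 1.0 ST arrays, on which the median probe set of an array lay between 5.82 and 5.95, and precision is limited by the number of arrays. Fezf1 itself stood at 11.25, 11.12 and 11.30 on the heterozygous arrays and at 5.56, 5.92 and 6.28 on the null arrays, as labelled.

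Multiciliated cells, such as those of the airway, the ependyma and the oviduct, build many motile cilia from many centrioles. The coiled-coil proteins Gmnc and Mcidas, relatives of the replication inhibitor geminin, act at the top of this programme with E2f partners, and the p53 relative Trp73, the cyclin-like Ccno, Myb, Foxj1 and the Rfx factors act with or below them. Olfactory sensory neurons also carry several cilia, but these are sensory and serve to hold odorant receptors. Gmnc and Trp73 are known in addition from Cajal-Retzius neurons of the cortex, which do not become multiciliated.

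The upstream windows of Gmnc, Trp73 and Ccno are shown because these 3 genes were the ones with higher signal in null cells. They are the 250 bases before each annotated start in RefSeq, build GRCm38.p6, which lists 2 starts each for Gmnc and Trp73 and 1 for Ccno, all protein-coding genes. The sequence table matched 6 of the 7 genes, all but Foxj1. A set of 5 motifs were searched on both strands, an RFX half-site (GTTGCCA), a forkhead core (TGTTTAC), an E2F site (TTTNNCGC), a MYB core (CAACNG) and the p53-family half-site. Looser letters for RFX (GTTNCCA) and E2F (TTCCCGC or TTGGCGC) were set after these windows had been read, and the E2F letters were taken to fit the Trp73 window. Capitals mark a match to either spelling.
Gmnc, upstream start, chr16:26991653-26991902, minus strand: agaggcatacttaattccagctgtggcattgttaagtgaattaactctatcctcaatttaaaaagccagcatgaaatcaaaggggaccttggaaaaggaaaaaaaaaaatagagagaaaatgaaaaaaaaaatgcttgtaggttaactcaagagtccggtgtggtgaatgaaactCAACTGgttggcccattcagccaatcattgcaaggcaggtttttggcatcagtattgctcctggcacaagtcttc
Gmnc, downstream start, chr16:26968246-26968495, minus strand: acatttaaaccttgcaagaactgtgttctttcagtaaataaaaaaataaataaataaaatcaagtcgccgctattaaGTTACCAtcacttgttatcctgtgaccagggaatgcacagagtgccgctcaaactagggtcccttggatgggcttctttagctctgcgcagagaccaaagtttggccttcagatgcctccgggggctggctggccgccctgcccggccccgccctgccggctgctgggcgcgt
Trp73, upstream start, chr4:154139876-154140125, minus strand: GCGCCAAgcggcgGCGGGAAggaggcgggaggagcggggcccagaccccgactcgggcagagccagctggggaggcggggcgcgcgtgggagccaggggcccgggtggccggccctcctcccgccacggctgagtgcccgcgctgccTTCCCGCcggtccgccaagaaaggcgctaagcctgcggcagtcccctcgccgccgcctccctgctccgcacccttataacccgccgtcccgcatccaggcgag
Trp73, downstream start, chr4:154097174-154097423, minus strand: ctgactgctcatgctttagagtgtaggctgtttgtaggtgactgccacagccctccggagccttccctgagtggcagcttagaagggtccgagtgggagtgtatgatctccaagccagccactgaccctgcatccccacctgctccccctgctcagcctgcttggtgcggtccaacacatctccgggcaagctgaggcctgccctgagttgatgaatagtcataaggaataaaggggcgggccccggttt
Ccno, chr13:112987552-112987801, plus strand: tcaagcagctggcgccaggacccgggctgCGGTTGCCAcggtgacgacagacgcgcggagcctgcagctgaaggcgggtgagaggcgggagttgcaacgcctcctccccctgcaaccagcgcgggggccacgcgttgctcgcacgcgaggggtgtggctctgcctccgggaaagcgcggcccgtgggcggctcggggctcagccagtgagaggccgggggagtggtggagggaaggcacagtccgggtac

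With the stricter letters, the RFX half-site was found in the Ccno window only, against 3.66% of all 32851 windows of this length. The stricter E2F site was found in none of the 5 windows (4.28% of all windows), nor were the forkhead core (3.17%) and the p53-family half-site (7.13%). A MYB match stood in the upstream Gmnc window and in the Ccno window, where it overlaps the RFX half-site, against 29.3% of all windows. With the looser letters, the downstream Gmnc window gained an RFX match (14% of all windows), and the upstream Trp73 window, which is 77.2% G and C, gained 3 E2F matches (5.62% of all windows hold at least 1). The Trp73 matches thus depend on letters chosen to fit that window, and no comparison rests on them. No motif was common to the 3 genes under either spelling. Of the windows not shown, that of Rfx2, whose signal was level, held 3 MYB matches and 1 looser RFX match. The windows of Rfx3 and Myb held no match. A match is a run of letters and was not tested as a binding site. The downstream Trp73 start gives the shorter, amino-terminally truncated p73 isoforms, and the single Trp73 probe set was not resolved by start.

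Gmnc had the largest difference of the 7 genes and stood higher in null cells. Its log2 signal was 7.03, 6.91 and 7.35 on the heterozygous arrays and 8.24, 9.51 and 9.0 on the null arrays. The lowest null array lay 0.89 above the highest heterozygous one, so the groups did not overlap. The means were 7.10 ± 0.23 and 8.91 ± 0.64 (SD, n = 3 each), a difference of 1.81 (SE 0.33), or 3.52-fold. Only 12 of the 19938 genes had a larger positive difference. By limma over all genes the adjusted p was 0.124, so Gmnc did not pass the threshold of 0.05 on 6 arrays.

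Null replicate 1 was the lowest null array for Gmnc and widened the spread of the group. Across all genes this array was the least like the rest (r of 0.905 to 0.935, where pairs of the remaining 5 arrays gave 0.975 to 0.995). When it was left out, Gmnc rose by 2.15 (SE 0.19, limma adjusted p = 0.00325), or 4.44-fold. Gmnc encodes the geminin-related protein needed to start multiciliated cell formation, and its signal on every null array was above the highest heterozygous signal.

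Trp73, which encodes the p53 relative p73, had the same order of null arrays as Gmnc, though not of heterozygous arrays. Its signal was 6.39, 6.21 and 6.16 on the heterozygous arrays and 7.13, 7.92 and 7.76 on the null arrays. The groups were separated by 0.74, and null replicate 1 was again the lowest null array. The means were 6.25 ± 0.12 and 7.60 ± 0.42 (SD, n = 3 each), a difference of 1.35 (SE 0.22, limma adjusted p = 0.0861), or 2.55-fold, and 37 genes had a larger positive difference. Without null replicate 1, Trp73 rose by 1.59 (SE 0.11, limma adjusted p = 0.00123), or 3.01-fold.

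Ccno, a cyclin-like gene needed for centriole amplification in multiciliated cells, showed the same order of null arrays on a smaller scale. Its signal was 6.41, 6.46 and 6.52 on the heterozygous arrays and 6.85, 7.30 and 7.09 on the null arrays. The groups were 0.33 apart, and heterozygous values were close together (6.47 ± 0.05 against 7.08 ± 0.22, SD, n = 3 each). The difference was 0.61 (SE 0.13, limma adjusted p = 0.188), or 1.53-fold. In the 5 arrays without null replicate 1, Ccno rose by 0.72 (SE 0.10, limma adjusted p = 0.0203).

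Foxj1, the forkhead factor that drives motile cilia genes, lay on the other side. Its signal was 7.33, 7.60 and 7.83 on the heterozygous arrays and 6.95, 7.24 and 7.29 on the null arrays. The highest null array was 0.04 below the lowest heterozygous one, a gap smaller than the spread within either group (SD 0.25 and 0.18). The difference of -0.42 (SE 0.16, limma adjusted p = 0.504) did not pass, nor did that of -0.32 without null replicate 1 (adjusted p = 0.364).

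Rfx3, an X-box binding factor of sensory and motile cilia, was also lower on every null array. It stood at 10.59, 10.42 and 10.71 on the heterozygous and at 9.16, 10.19 and 10.23 on the null arrays. Null replicate 1 lay over 1 log2 unit below the other null arrays. The difference was -0.72 (SE 0.30, limma adjusted p = 0.536) with it and -0.37 (SE 0.11, adjusted p = 0.184) without it, and passed in neither. Rfx2, which acts beside Rfx3 in multiciliated cells, was level, with 6.88, 6.83 and 6.90 against 6.80, 6.89 and 6.95. Its difference was 0.01 (SE 0.09), and the groups overlapped.

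Myb, a factor of progenitors that also acts early in multiciliated cells, overlapped between the genotypes. It stood at 6.88, 7.21 and 6.74 on the heterozygous and at 7.28, 6.84 and 6.86 on the null arrays, highest on null replicate 1. The difference was 0.05 (SE 0.18, limma adjusted p = 0.932) over all arrays and -0.09 (SE 0.15) without that array. The groups overlapped in both.

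**Figure D1:**
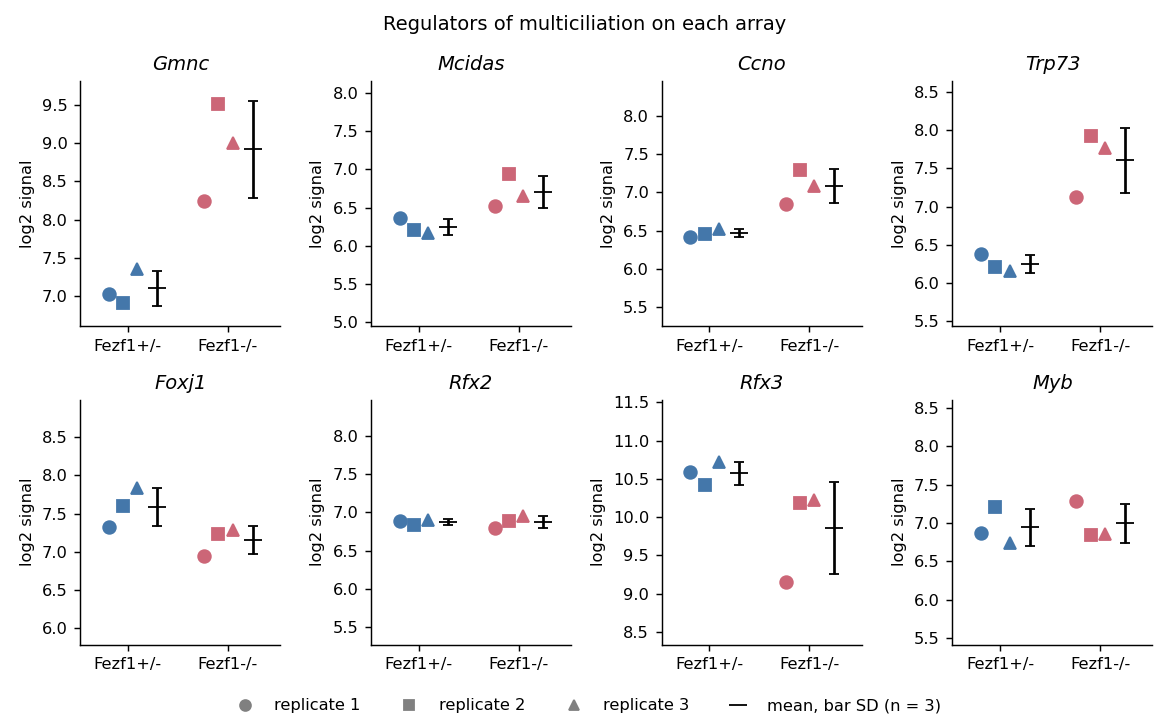
Log2 signal (vertical axis, all panels spanning the same number of log2 units) of the 7 regulators and of Mcidas on each Fezf1+/- (blue) and Fezf1-/- (red) array, with marker shapes for replicates and black bars for mean and SD (n = 3). Gmnc, Trp73, Ccno and Mcidas lay higher on every null array than on any heterozygous array, and Foxj1 and Rfx3 lower.

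By limma, 0 of the 7 regulators passed an adjusted p of 0.05 on 6 arrays, where 0.552% of all genes were called and 0.0953% were called higher. At an unadjusted p under 0.05 there were 3 higher (Gmnc, Trp73, Ccno), beside 4.23% of all genes, and 1 lower (Foxj1), beside 5.25%. With array weights in place of equal weights 3 passed, where 740 of all 19938 genes were called, 284 of them higher. In the 5 arrays without null replicate 1, 3 passed and all 3 rose, where 2.66% of all genes were called and 0.993% rose. All null arrays lay above all heterozygous arrays for 3 of the 7, against 9.72% of all genes, and below for 2 of the 7, against 8.77%. No regulator passed when any of the other arrays was left out instead. The median difference of the 7 was 0.05 over all arrays, beside 0.02 over all genes.

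**Figure D2:**
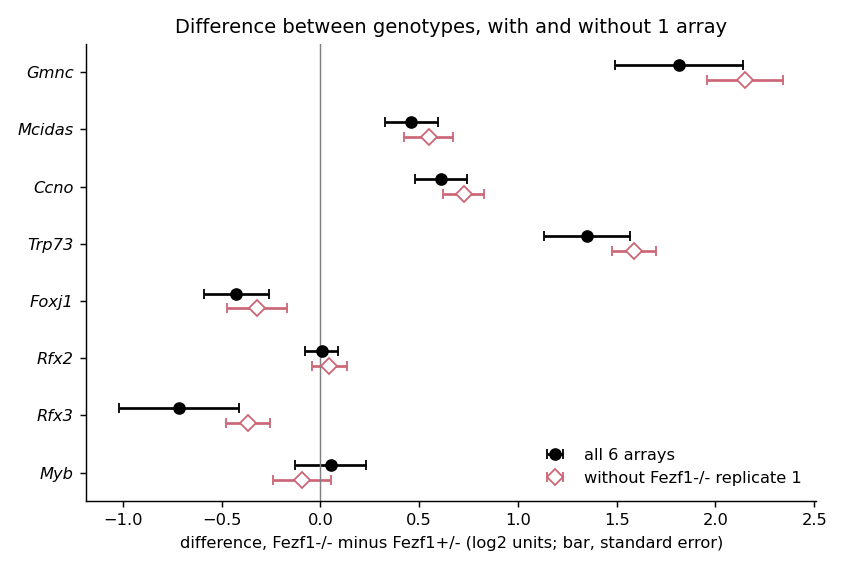
Difference between null and heterozygous arrays (horizontal axis, log2 units, bars are standard errors of the limma fit) for the 7 regulators and Mcidas, over 6 arrays (black) and without null replicate 1 (red, open). Leaving out this array moved Gmnc from 1.81 to 2.15 and Rfx3 from -0.72 to -0.37.

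The geminin family has 3 members. Mcidas, which like Gmnc lacks the licensing role of geminin and drives multiciliation, stood at 6.36, 6.21 and 6.17 on the heterozygous and at 6.53, 6.94 and 6.65 on the null arrays. Its null values were all higher, with a difference of 0.46 (SE 0.13, limma adjusted p = 0.347), and it did not pass without null replicate 1 either (0.55, adjusted p = 0.0819). Geminin itself, Gmnn, which restrains DNA replication licensing, differed by 0.03. The family thus held 0 called members of 3 over all arrays, beside 0.552% of all genes. Without null replicate 1 it held 1, Gmnc itself, beside 2.66% of all genes.

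Ccno and Mcidas are next to each other in RefSeq's gene order of GRCm38.p6, and Cdc20b with the miR-449 hairpins follows, a cluster known for its use in multiciliated cells. These neighbours were looked up after the values of Ccno were seen. Cdc20b overlapped between genotypes, with 5.57, 5.37 and 5.39 against 5.43, 5.19 and 5.48 (difference -0.08, SE 0.12). Within Cdc20b, Mir449c stood at 4.72, 4.38 and 4.26 against 5.02, 4.87 and 4.94 (difference 0.50, SE 0.14, limma adjusted p = 0.325), and Mir449a differed by 0.28 (adjusted p = 0.602) with overlapping groups. Dhx29, the nearest protein-coding gene on the other side of Ccno, differed by 0.03. Without null replicate 1 the remaining null arrays lay above all heterozygous arrays for Mir449a too, as they did for 3961 of all 19938 genes. The differences were then 0.42 (SE 0.09, limma adjusted p = 0.0790) for Mir449a and 0.46 (adjusted p = 0.201) for Mir449c, and neither passed.

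The miR-449 microRNAs share their seed (bases 2 to 8, in capitals) with miR-34, and this family is known to promote multiciliation by repressing Ccp110 and Notch signalling. The mature sequences from RefSeq (GRCm38.p6) are shown for 4 of the 5 hairpins measured here, and Mir34c is named only.
mmu-miR-449a-5p: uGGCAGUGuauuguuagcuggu
mmu-miR-449c-5p: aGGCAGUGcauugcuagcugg
mmu-miR-34a-5p: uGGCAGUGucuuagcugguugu
mmu-miR-34b-5p: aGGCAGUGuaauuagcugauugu
The 3 miR-34 hairpins differed by 0.04 (Mir34a), -0.15 (Mir34b) and 0.04 (Mir34c). Their signals lay between 3.18 and 4.63, and all 5 hairpins were below the median probe set on every array. At such low signals a difference near 0 says little about change. A probe set for a hairpin on this array reads longer precursor or host RNA and not the mature microRNA.

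Of the p53 family, 2 of 3 members were measured under a single symbol. Trp63, a factor of basal epithelial cells, stood between 6.22 and 6.76 on the heterozygous arrays, at 7.56 on null replicate 1 and at 6.20 and 6.29 on the other null arrays. Its difference of 0.11 became -0.33 without null replicate 1, and it passed in neither fit (limma adjusted p = 0.936 and 0.417). Wrap73, the nearest protein-coding gene on one side of Trp73 and named here for its position, stood at 7.73, 7.46 and 7.77 against 7.74, 9.06 and 8.35, with overlapping groups (difference 0.73, SE 0.33, limma adjusted p = 0.557). Without null replicate 1 its null arrays lay above all heterozygous arrays, as for 3961 of all 19938 genes. The difference was then 1.05 (SE 0.21, limma adjusted p = 0.0624). On the other side of Trp73, Ccdc27 differed by 0.09, and the protein-coding neighbours of Gmnc, Il1rap and Ostn, differed by 0.45 and 0.42 over all arrays and by -0.20 and 0.01 without null replicate 1.

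Further regulators of the programme mostly lay near 0. Of the 20 measured beyond the 7, 0 were called in either fit by limma, the unadjusted p was under 0.05 for 2 (both higher, beside 4.23% of all genes), and the median difference was 0.04, beside 0.02 over all genes. The 2 with the smallest p were Mcidas and Noto, a homeobox gene of node cilia (0.43, SE 0.14, limma adjusted p = 0.388). Noto stood at 4.67, 4.51 and 4.47 against 4.77, 4.99 and 5.20, which is below the median probe set of an array. Within the Rfx family of 8 genes, Rfx3 and Rfx1 (-0.14) had the smallest p. Foxj2 (0.12), Mybl2 (0.10), Mybl1 (0.11), and the E2f partners E2f4 (-0.03) and Tfdp2 (-0.04) also differed by less than 0.15 and did not pass.

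Genes of centriole amplification did not shift as a list. Of 29 measured, 14 had a positive and 15 a negative difference, with a median of -0.06, and 0 were called in either fit. Without null replicate 1 the median was 0.04. Ccp110, which caps centrioles (-0.41, SE 0.17, limma adjusted p = 0.536), and 4933427D14Rik (-0.29) had the smallest p. Deup1, the deuterosome scaffold used by multiciliated cells and named here for its role, stood at 4.93, 5.47 and 5.17 against 4.97, 5.47 and 5.43, with a difference of 0.10 (SE 0.20).

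Motile cilia genes, many of them known targets of Foxj1 and Rfx factors, lay on the lower side in null cells, opposite to Gmnc and Trp73. The 67 genes are those of 4 lists, namely dynein arm genes, their assembly factors, radial spoke and central pair genes, and multiciliated cell markers, of which some are not axonemal. Of the 67, 60 had a negative difference, beside 45.2% of all genes, with a median of -0.41 over all arrays and -0.29 without null replicate 1. By limma 0 were called on 6 arrays, and an unadjusted p under 0.05 was reached by 18 with lower null signal, beside 5.25% of all genes, and by 1 with higher, beside 4.23%. All null arrays lay below all heterozygous ones for 29 of the 67, against 8.77% of all genes, and above for 1. Without null replicate 1 only 1 of the 67, Dnah11, was called, beside 2.66% of all genes.

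Dnah11, an outer arm dynein heavy chain, stood at 7.53, 7.30 and 7.18 on the heterozygous and at 6.01, 6.56 and 6.56 on the null arrays. The difference was -0.96 (SE 0.19, limma adjusted p = 0.146), and without null replicate 1 it fell by 0.78 (SE 0.12, adjusted p = 0.0264). The 22 dynein arm genes had a median of -0.38, 20 of them negative, with Armc4 at -0.71. The 9 assembly factors had a median of -0.24, with Dnaaf1 at -0.39 (SE 0.10) and Zmynd10 at -0.80 (SE 0.32). The 16 radial spoke and central pair genes had a median of -0.60, with Rsph4a at -1.20 (SE 0.37) and Spef2 at -1.57 (SE 0.55), and Spef2 moved to -0.95 without null replicate 1. None of these named genes except Dnah11 passed in either fit.

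The multiciliated cell markers, already counted among the 67, are of cells which could enter the sort from the neighbouring respiratory epithelium. Their differences were negative for 19 of 20, with a median of -0.53. Pifo (-1.10, SE 0.24, limma adjusted p = 0.194) and Cfap126 (-0.80, SE 0.20) had the smallest p, and 0 were called in either fit. Their summed linear signal ran from 2513 to 3349 on the heterozygous arrays and from 1533 to 2431 on the null arrays, so the groups did not overlap. Sntn and Tmem212, 2 markers of mature motile cilia named after their values were seen, were highest on heterozygous replicate 2, Sntn at 6.58 there and between 4.91 and 5.03 on the other 5 arrays. Of the 67 genes, 32 were highest on heterozygous replicate 2 and 37 lowest on null replicate 1, counts not taken over all genes. Markers of respiratory secretory epithelium summed to 4925, 12204 and 5058 on the heterozygous arrays and to 16545, 4904 and 3967 on the null arrays. The part of multiciliated cells in the differences of the regulators was not tested.

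**Figure D3:**
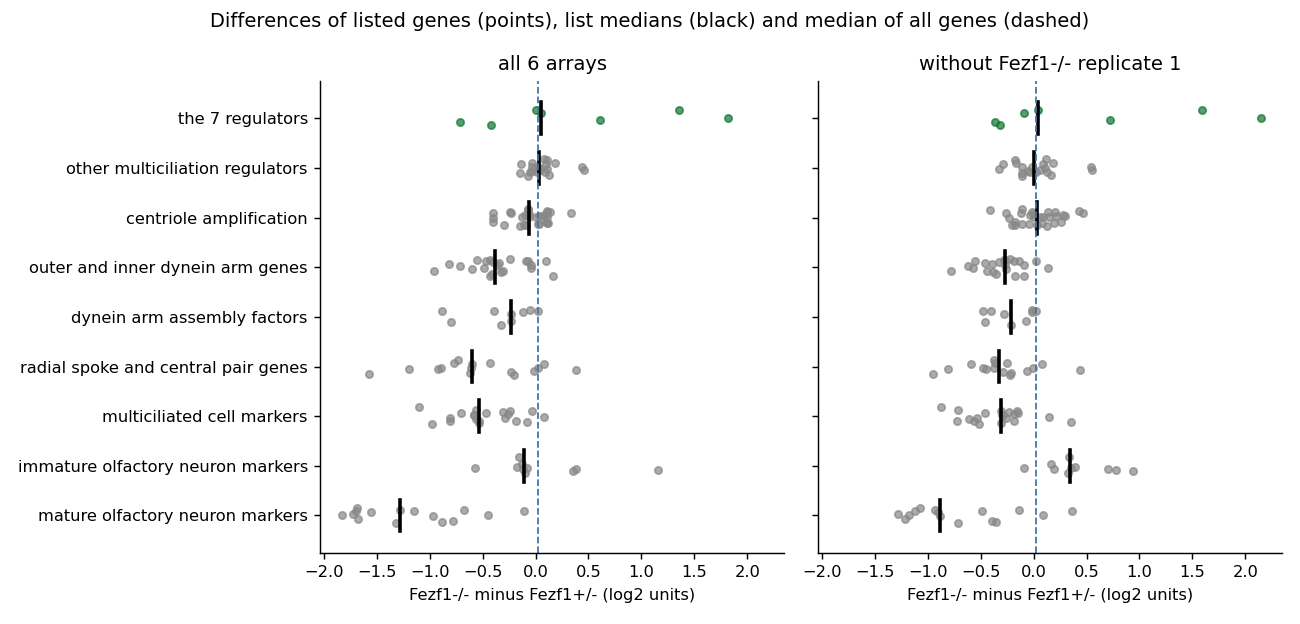
Differences between null and heterozygous arrays (horizontal axis, log2 units) of each gene (points) in 9 lists, over 6 arrays (left) and without null replicate 1 (right), with list medians as black bars and the median of all genes dashed. Gmnc and Trp73 are the 2 rightmost points of the top row, while the 4 motile cilia lists have medians between -0.60 and -0.24 over 6 arrays.

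Other cell types moved with some arrays, in bulk RNA in which fewer cells of a type and less RNA per cell cannot be told apart. On null replicate 1 the summed signal of 11 mesenchyme and bone markers was 19098, against 1178 to 2651 on the other 5 arrays, and that of 11 myeloid markers 3543, against 509 to 670. Mature olfactory neuron markers, such as Omp, summed to 18917 to 25857 on the heterozygous arrays, to 4448 on null replicate 1 and to 13504 and 14238 on the other null arrays. All 15 of them had a negative difference, with a median of -1.28. Without null replicate 1, 13 were negative and 2 positive, with a median of -0.89. Immature neuron markers such as Gap43 had medians of -0.11 and, without null replicate 1, 0.34. By limma 0 of either neuron list were called on 6 arrays. The fit without null replicate 1 called 3 of 10 immature markers higher and 5 of 15 mature ones lower, beside 2.66% of all genes called. The part of these shifts in the motile cilia, Rfx3, Gmnc, Trp73 and Ccno differences was not tested. For Gmnc, Trp73 and Ccno, the differences were larger without null replicate 1, and the immature neuron median was higher there too. Among 10 Cajal-Retzius markers 0 were called in either fit, with a median difference of 0.05 and, without null replicate 1, 0.13. In the latter fit 8 were positive, beside 11022 of all 19938 genes, while Reln (-0.35) and Ebf2 (-0.15) were negative. There Tbr1 at 0.73, whose groups overlapped, Nhlh2 at 0.40 and Calb2 at 0.34 had an unadjusted p under 0.05 by limma. Such a p with higher null signal was reached by 1522 of all 19938 genes. Lhx1, Lhx5 and Barhl2 lay between 4.38 and 5.17 on all arrays, while Calb2, Ebf2, Ebf3 and Cxcr4 lay between 9.46 and 12.12.

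**Figure D4:**
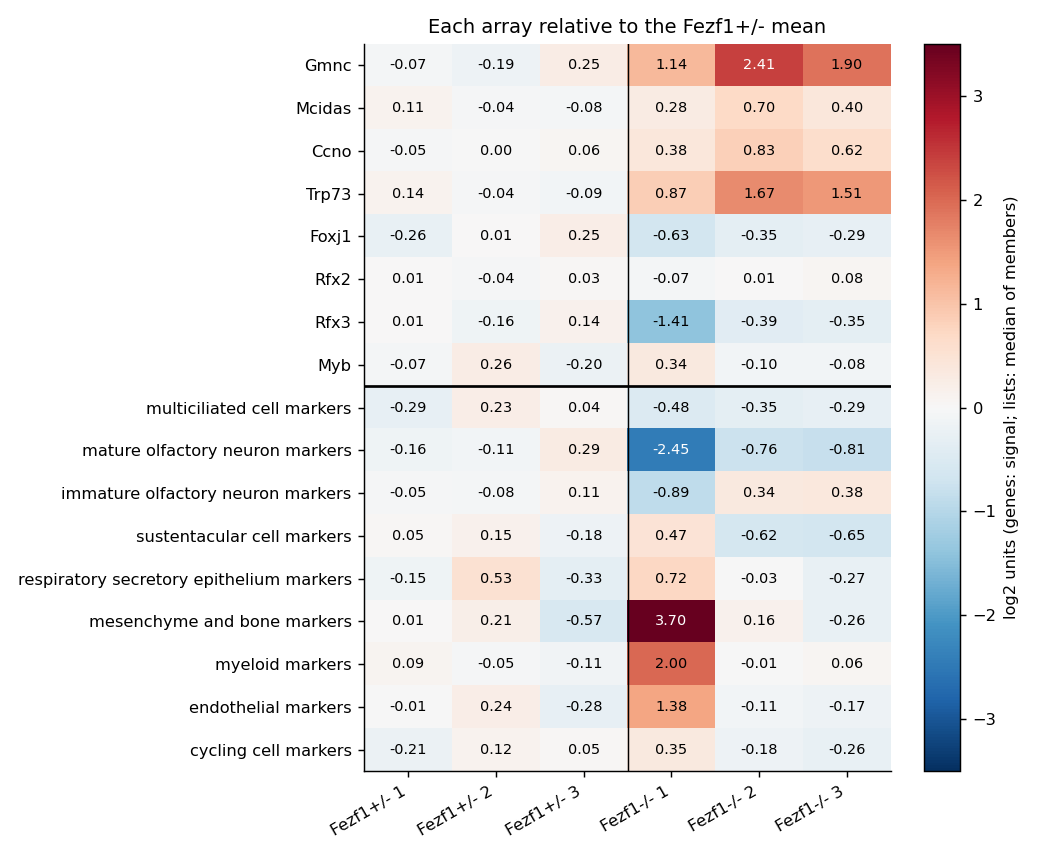
Signal of the 7 regulators and Mcidas, and median over the members of 9 marker lists, on each array (columns) minus the mean of the heterozygous arrays, in log2 units by colour and number. Mesenchyme and myeloid markers were raised by 3.70 and 2.00 on null replicate 1, while Gmnc was raised by 1.14, 2.41 and 1.90 on the 3 null arrays.

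Across the 6 arrays the pattern of Gmnc was closest to that of Ccno among the 7, with a Pearson r of 0.995, and its r to Trp73 was 0.977. These values describe 6 arrays that share the genotype difference, and carry no test. Among 3940 genes with a range of at least 1 log2 unit, 33 had an r above 0.95 with Gmnc and 43 with Trp73. The 5 closest to Gmnc were Pidd1 (0.993), the potassium channel gene Kcnj5 (0.991), the vomeronasal receptor gene Vmn2r1 (0.988), 1700001K23Rik (0.986) and the homeobox gene Dlx3 (0.986). The 5 closest to Trp73 were Reep5 (0.992), Dlx3 (0.991), the galactosyltransferase gene B3galt1 (0.989), Rapgef6 (0.987) and the calcium pump gene Atp2b2 (0.985).

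Dlx3, the gene in both sets of 5, stood at 7.15, 6.94 and 7.17 on the heterozygous and at 8.07, 9.20 and 9.16 on the null arrays. Kcnj5 stood at 5.50, 5.69 and 5.81 against 7.11, 8.23 and 7.74. Both were lowest among the null arrays on null replicate 1, as Gmnc and Trp73 were. Since both were picked for a high r over these same arrays, this order and the fits below are not separate evidence. On 6 arrays neither passed by limma (Dlx3 1.72, adjusted p = 0.126, and Kcnj5 2.03, adjusted p = 0.0584), and without null replicate 1 both rose (2.09, adjusted p = 0.000439, and 2.32, adjusted p = 0.0015). Foxj1 and Rfx3 correlated with Gmnc at -0.53 and -0.40 and with each other at 0.83, and Myb with Gmnc at -0.21. These values include the genotype difference. As deviations from each genotype mean, the r with Gmnc was 0.65 for Foxj1, 0.90 for Rfx3 and -0.84 for Myb. Null replicate 1 was the lowest null array for Gmnc, Foxj1 and Rfx3 and the highest for Myb, so this array weighs heavily in these few deviations. On these arrays Foxj1 and Rfx3 did not run opposite to Gmnc within genotypes. Whether that holds without null replicate 1 was not tested.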

How the data were processed

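Per the submitters' processing notes, the tools behind the deposited log2 signals were Affymetrix Expression Console and GCRMA. Order, versions, filters and genome build are not given in the sources used here, and base 2 was inferred from the range of 2.14 to 14.5. GCRMA corrects for an estimated background, so low signals depend on that estimate.

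Of 35557 probe sets, 21789 had 1 gene symbol in the platform annotation of 2016, 1621 several and 12147 none. Symbols were updated through Entrez numbers to RefSeq names of GRCm38.p6 for 21698 probe sets. For each of 19938 genes the probe set of highest mean signal was kept, with no filter on low values. The genotype difference was fitted in limma 3.58.1 under R 4.3.3 (lmFit, eBayes, two-sided, Benjamini-Hochberg over all genes, threshold 0.05). The procedure was also run on simulated data. Its pass criterion was revised after a first failure on the simulation without null replicate 1, so no result here rests on that run.

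The 7 regulators and all gene lists were chosen with earlier results of these data known. The text names the 7 regulators, from each list up to 3 called genes or else the 2 with the smallest p, and the 5 genes closest to Gmnc and to Trp73 by Pearson r. Neighbouring genes, hairpins and genes given for their role are outside this rule. Alternatives were quantile normalisation, median centring, a filter at the median gene mean, averaged probe sets, trend and robust eBayes, array weights, a block for replicate number, and each array left out in turn. Counts for the lists without null replicate 1, and the looser motif letters, were added after seeing the data. Motifs were searched in the first 250 of 300 bases of each RefSeq promoter entry.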

Additional observations from a re-analysis of the deposited data

How the results depend on the processing

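The direction of Gmnc, Trp73, Ccno, Foxj1 and Rfx3 was kept in each of 13 alternatives. Array weights gave 740 called genes against 110, and 3 called regulators against 0, with Gmnc at 2.23 (limma adjusted p = 0.00268), Trp73 at 1.59 (0.000908) and Ccno at 0.75 (0.00941), and turned Myb to -0.13 (not called). Testing only genes above the median mean left 24 calls. Leaving out 1 array gave 40 to 531 called genes and 0 to 3 called regulators. Gmnc then ran from 1.52 to 2.15, Trp73 from 1.19 to 1.59, Ccno from 0.50 to 0.72, Rfx2 from -0.030 to 0.045 and Myb from -0.092 to 0.18, so Rfx2 and Myb had no stable sign. Rfx2 was negative without heterozygous replicate 2 (-0.01) and without null replicate 3 (-0.030), and Myb without heterozygous replicate 3 (-0.05) and without null replicate 1 (-0.092). Without null replicate 1, called genes were 1 of 3 in the geminin family (Gmnc), 1 of 2 in the p53 family (Trp73) and 1 of 22 dynein arm genes (Dnah11). Over 6 arrays there were 0 in each. In the fit without that array 2.66% of all genes were called, and Gmnc and Trp73 are already counted among the 3 called regulators. Adjusted p over the alternatives ran from 0.00268 to 0.424 for Gmnc and from 0.000908 to 0.390 for Trp73. The cause of these changes was not tested. Whether replicate numbers pair the arrays was not settled, since deviations of same-numbered arrays correlated at 0.23, -0.33 and 0.54. By these deviations null replicate 1 was closest to heterozygous replicates 1 and 2, and null replicate 3 to heterozygous replicate 3. With the replicate number as a block, 88 genes and 0 regulators were called.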
